A study of Mus musculus with 12 samples.

Results

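Genes of the cell cycle and of cell division were followed in hearts of mice expressing IDH2, an isocitrate dehydrogenase of mitochondria, in either of its mutant forms R140Q and R172K. The set holds 46 genes chosen by name for their roles, with earlier results of these data known. Of these, 45 were measured among the 19937 genes of the array that a probe set with 1 gene symbol represents. Ccnb1 was not analysed here. Where a gene had several such probe sets, the one with the highest mean stood for it.

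RNA of whole hearts was hybridised to 12 Affymetrix arrays, 4 from mice with mutant IDH2 R140Q, 4 from mice with mutant IDH2 R172K and 4 from control mice. All mice were of a mixed background of the strains C57BL/6, 129/sv and Balb/c. Mutant mice were treated with 4-hydroxytamoxifen, which activates tamoxifen-inducible Cre recombinases, at 2 mg on 3 days when 5 weeks old. Not given in the sources used here are the treatment of control mice, the driver of any Cre, the animals' sex and the time to dissection. A response to the drug or to Cre therefore cannot be told apart from a response to the mutation when a mutant is set against control. Each array is labelled as its own replicate, with no statement that each came from its own animal, and p-values reflect only how far these samples spread. The number of arrays limits the precision.

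A dividing cell passes through a DNA synthesis phase and a mitotic phase, driven by cyclins that bind and activate cyclin-dependent kinases. E2f factors, held back by proteins of the Rb family, turn on replication genes, and the MuvB complex, joined by B-Myb (Mybl2) and then Foxm1, turns on mitotic genes. Cardiomyocytes of the mouse largely stop dividing soon after birth, while endothelial cells, fibroblasts and immune cells of the heart can still divide.

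Promoters are shown for the 5 widest-ranging genes of the set with a window kept from the RefSeq table (GRCm38.p6). They are shown because these genes carried the differences between arrays described below. Each runs 5′ to 3′ on the gene's strand, over 250 bases before and 50 bases after its start. Capitals mark CCAAT, the box bound by NF-Y, which reads ATTGG when it lies on the opposite strand. They also mark TTTGAA, known as the cell cycle homology region that MuvB contacts, which reads TTCAAA when reversed. The third motif marked is TTTNGCG, an E2F site, searched on both strands. No 2 of the marked stretches overlap in these sequences. Top2a lies at chr11:99024140-99024439 (minus strand), Prc1 at chr7:80294201-80294500 (plus strand), Mki67 at chr7:135716330-135716629 (minus strand), Bub1 at chr2:127831810-127832109 (minus strand) and Cdk1 at chr10:69352863-69353162 (minus strand).
Top2a: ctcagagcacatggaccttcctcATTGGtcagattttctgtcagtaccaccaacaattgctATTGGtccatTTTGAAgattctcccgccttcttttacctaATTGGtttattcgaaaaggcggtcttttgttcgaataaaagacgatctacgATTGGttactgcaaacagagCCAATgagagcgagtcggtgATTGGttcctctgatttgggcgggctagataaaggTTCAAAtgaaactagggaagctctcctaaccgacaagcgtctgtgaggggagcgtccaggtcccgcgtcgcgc
Prc1: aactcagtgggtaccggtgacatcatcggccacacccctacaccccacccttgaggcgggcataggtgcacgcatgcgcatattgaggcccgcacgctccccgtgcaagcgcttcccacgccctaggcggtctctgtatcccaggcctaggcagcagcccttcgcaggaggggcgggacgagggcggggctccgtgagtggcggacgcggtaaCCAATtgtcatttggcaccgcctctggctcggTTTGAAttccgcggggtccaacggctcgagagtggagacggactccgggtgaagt
Mki67: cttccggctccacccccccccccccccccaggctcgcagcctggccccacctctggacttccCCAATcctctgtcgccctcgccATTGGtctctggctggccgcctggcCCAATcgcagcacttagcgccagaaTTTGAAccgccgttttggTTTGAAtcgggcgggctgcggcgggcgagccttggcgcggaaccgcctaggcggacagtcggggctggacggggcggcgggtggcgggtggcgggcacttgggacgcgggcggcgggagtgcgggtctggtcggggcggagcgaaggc
Bub1: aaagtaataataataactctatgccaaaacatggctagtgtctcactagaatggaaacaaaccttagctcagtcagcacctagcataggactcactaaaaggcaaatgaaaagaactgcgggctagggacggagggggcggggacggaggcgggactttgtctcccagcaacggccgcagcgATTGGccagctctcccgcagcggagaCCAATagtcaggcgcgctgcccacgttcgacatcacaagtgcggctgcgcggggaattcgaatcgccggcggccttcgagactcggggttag
Cdk1: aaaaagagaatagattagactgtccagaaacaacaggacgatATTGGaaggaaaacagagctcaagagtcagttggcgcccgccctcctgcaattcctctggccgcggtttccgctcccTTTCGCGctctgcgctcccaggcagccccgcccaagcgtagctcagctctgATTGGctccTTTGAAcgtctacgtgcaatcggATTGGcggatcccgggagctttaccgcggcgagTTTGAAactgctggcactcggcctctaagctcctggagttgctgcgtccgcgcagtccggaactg

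The Top2a window held 6 CCAAT boxes and 2 TTTGAA elements, the Mki67 window 3 and 2, and the Cdk1 window 3 and 2 with 1 E2F match. Prc1 held 1 of each of the first 2 motifs, and Bub1 held 2 CCAAT boxes and no TTTGAA element. Promoters on chromosome 18, where Kif20a lies, and windows of another length were left out of the search. Of the 46 genes, 36 have a promoter among the windows kept. The others are Ccna2, Ccnd1, Ccnd2, Ccne2, Foxm1, Mybl1, Mcm4, Aurkb, Kif20a and Tpx2. CCAAT was found in 75.0% of the 36 windows, against 37.9% of the 27025 windows kept for all genes and 39.0% of the 17492 of protein-coding genes. TTTGAA stood in 50.0%, against 18.1% of all windows, and both motifs together in 47.2%, against 7.12%. The E2F letters stood in 16.7%, against 4.24%. A match is a description of the letters and shows neither binding nor control.

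Intensities of the set were mostly modest. For 34 of the 45 genes the mean log2 intensity lay under the median of all genes, 6.69, and for 6 it lay under the 25th percentile, where background takes a larger share of a value. Probe sets differ in how they respond, so levels of different genes are not ranked here. All 12 cardiomyocyte markers lay above that percentile. So did all endothelial, fibroblast and epicardial markers listed, so this does not test the tissue label. The summed intensity of the cardiomyocyte markers ran from 89439 to 93877 in R140Q, 72437 to 91290 in R172K and 96671 to 101913 in control hearts. Every mutant array thus lay below every control array for that sum.

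One array stood apart for these genes. R172K 4 had the highest value of all 12 arrays for 39 of the 45 genes, where 16.3% of all genes have their highest value in that array. As a median over the 45 genes, the log2 intensity minus the control mean was 0.306, 0.498, 0.516 and 0.121 in R140Q arrays 1 to 4, and -0.057, -0.166, 0.240 and 1.086 in R172K arrays 1 to 4. The control arrays lay at 0.074, -0.060, -0.033 and 0.001. All R140Q arrays therefore lay above all control arrays by this median, while R172K 1 lay within the control arrays, R172K 2 under them, R172K 3 above them and R172K 4 far above. Left out, that array moved the R172K difference from control by more than 1.5 times, or turned its sign, for 42 of the 45 genes, and values without it are given below for many of them. Because it was picked out by its high values in these same genes, leaving it out lowers the R172K mean and spread of most of them by selection. Counts from fits without it are therefore not like for like with the shares of all genes.

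**Figure D1:**
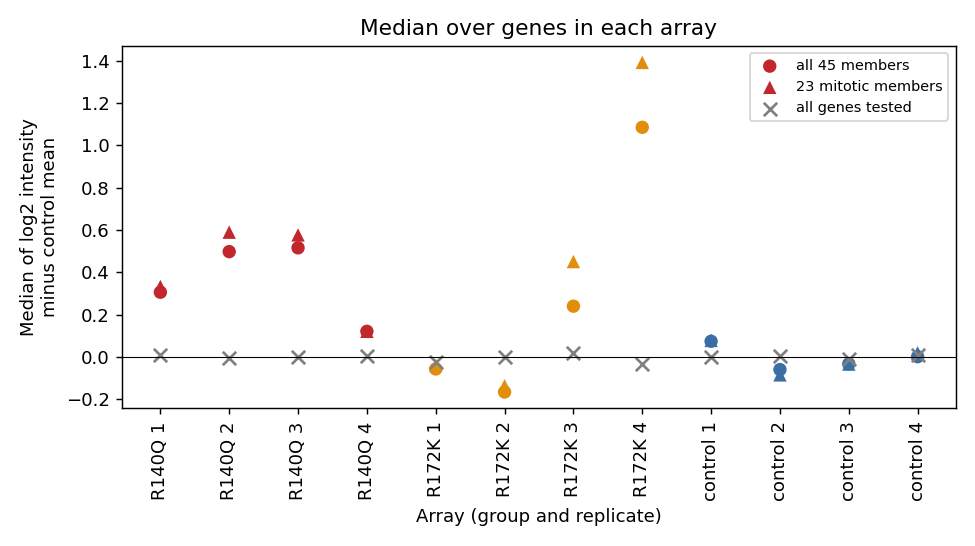
Median, over the 45 measured cell cycle genes (circles), the 23 mitotic genes among them (triangles) and all genes tested (crosses), of log2 intensity minus the mean of the 4 control arrays, for each array. Medians over the 45 genes run from 0.121 to 0.516 in R140Q, -0.166 to 1.086 in R172K and -0.060 to 0.074 in control arrays, while medians over all genes stay near 0.

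Arrays of a mutant also differed from each other more than control arrays did. The median SD over the 45 genes was 0.209 in R140Q, 0.601 in R172K and 0.132 in control hearts, against 0.105, 0.141 and 0.104 over all genes. The SD of the R172K arrays was above that of the control arrays for 45 of 45 genes, against 67.4% of all genes. The order R172K 4, then R172K 3, then R172K 1 and 2 was found for 36 of 45 genes, or 80.0%, against 8.09% of all genes. In the R140Q group, array 4 was the lowest for 28 of the 45 genes, or 62.2%, against 23.2% of all genes, and for 20 of the 23 mitotic genes.

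**Figure D2:**
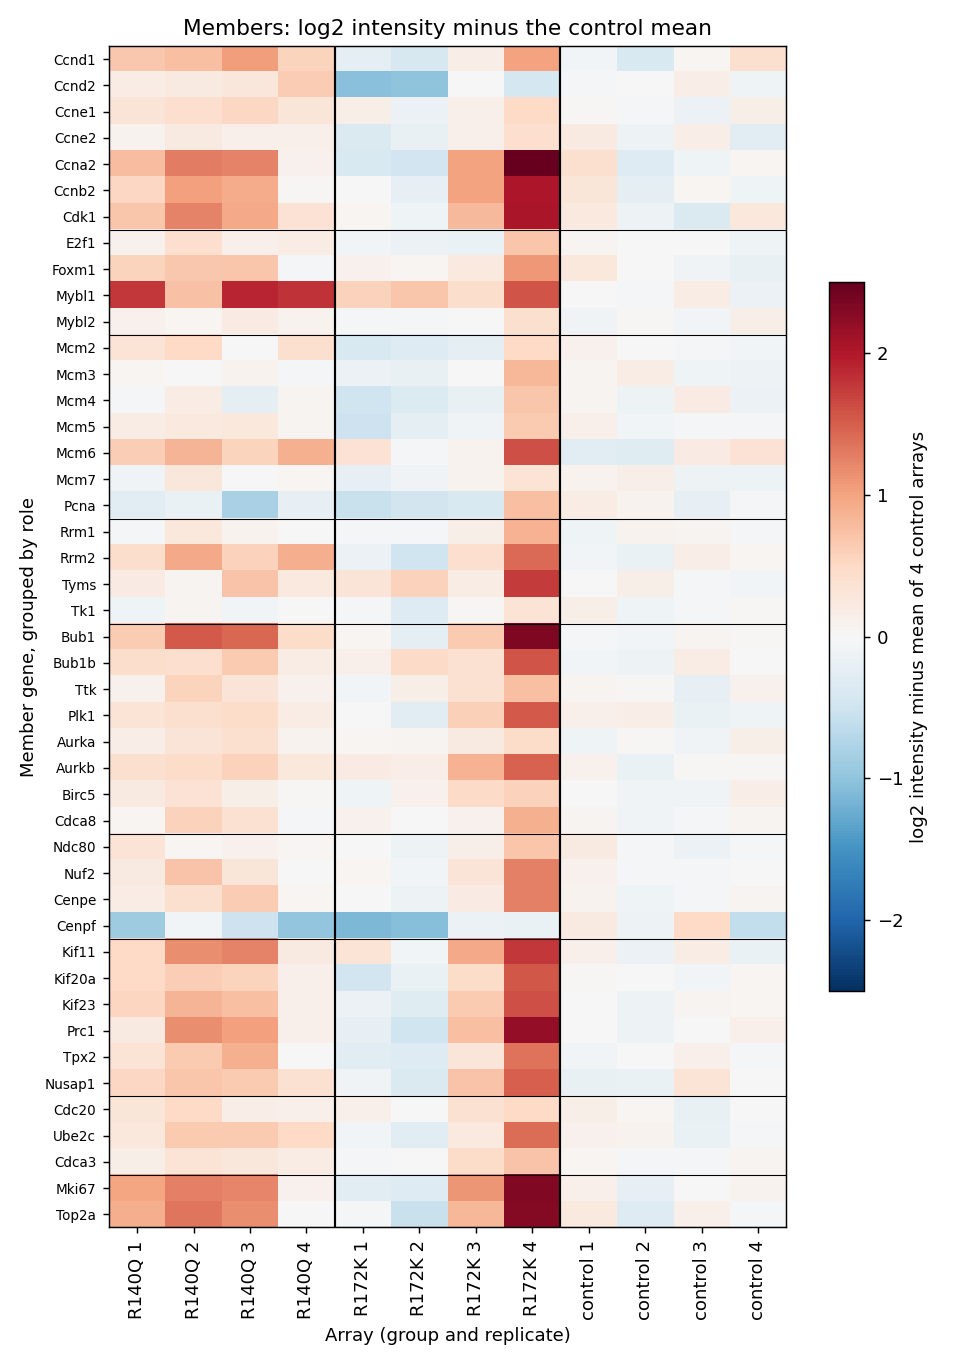
Log2 intensity minus the mean of the 4 control arrays for the 45 measured genes (rows, grouped by role, black lines between roles) in the 12 arrays (columns, R140Q, R172K, control). R172K 4 is the reddest column, R172K 1 and 2 are pale to blue in most rows, and R140Q 1, 2 and 3 are redder than R140Q 4 in most mitotic rows.

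Markers of other cells moved with R172K 4 as well. The 11 fibroblast markers summed to 11860 to 15862 in R140Q, 13948 to 23799 in R172K and 11504 to 14683 in control hearts. The 12 macrophage and myeloid markers summed to 3124 to 3830 in R140Q, 2826 to 7732 in R172K and 2592 to 3783 in control hearts. In R172K 4 both sums were the highest of the 12 arrays, at 23799 and 7732, and the cardiomyocyte sum was the lowest, at 72437. The 7 epicardial and mesothelial markers summed to 634 to 825 in R140Q, 914 to 1558 in R172K and 662 to 1011 in control hearts. By sum, R172K 4 was the highest array for these markers. It was so for the 5 erythroid precursor markers too, at 1321 against at most 1294 in the other arrays. By mean log2 intensity R172K 4 was the highest for neither list. Epicardial markers averaged 7.082 there and 7.205 in R172K 3, and erythroid markers 6.650 there and 6.758 in R140Q 3. Of the 5 erythroid markers, Epb42 and Rhag lay under the 25th percentile of genes. Endothelial markers summed to 13793 to 14235 in R140Q, 11817 to 13918 in R172K and 11204 to 11865 in control hearts. Of the other immune markers, 4 of 9 for lymphocytes (Cd3d, Cd3g, Cd79a and Ms4a1) and 5 of 9 for neutrophils lay under the 25th percentile of genes. The 7 atrial markers summed to 831 to 10125 in R140Q, 10945 to 20296 in R172K and 5262 to 27618 in control hearts, with R172K 4 at 13970. The part of these cells in the results was not tested. In bulk tissue, fewer cells of a type and less RNA per cell cannot be told apart.

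In R140Q hearts 1 of the 45 genes, Mybl1, rose against control at an adjusted p under 0.05, where 2.2% of all genes passed that test in either direction. That count is near the share of all genes and is no result about the set. The differences were positive for 41 of 45 genes, with a median of 0.337 on the log2 scale, where the median over all genes was 0.003. Every R140Q array lay above every control array for 19 of the 45 genes, against 7.79% of all genes. These 19 were Ccnd1, Ccnd2, Ccne1, Cdk1, E2f1, Mybl1, Mcm6, Rrm2, Bub1, Ttk, Plk1, Aurkb, Kif11, Kif20a, Kif23, Prc1, Nusap1, Ube2c and Cdca3. For Ttk and Prc1 the lowest R140Q and the highest control array were equal when rounded to 2 decimals. At an unadjusted p under 0.05 there were 9 of the 45 genes, where 17.0% of all genes had one.

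The spread of R172K 4 enters the test of R140Q hearts too, because all 12 arrays share 1 estimate of the spread per gene. In a fit without that array the R140Q differences stayed as they were, and 8 genes rose in R140Q against control, where 4.93% of all genes passed. They were Mybl1, Ccnd1, Ccne1, Mcm6, Rrm2, Bub1, Bub1b and Ube2c. In a fit of the 8 R140Q and control arrays alone, 15 genes rose, where 6.73% of all genes passed. That fit added Cdk1, Aurkb, Kif20a, Kif23, Nusap1, Cdca3 and Mki67. No gene of the set passed without R140Q 1, without R140Q 3 or without control 1.

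In R172K hearts none of the 45 genes passed the limma test against control, where 13.0% of all genes did. At an unadjusted p under 0.05 there were 6 genes, namely Mybl1, Tyms, Bub1b, Aurkb and Kif11 with positive differences and Ccnd2 with a negative one, where 26.6% of all genes had one. Differences were positive for 38 of 45 genes with a median of 0.296, where the median over all genes was -0.003. Without R172K 4 the median was 0.045, 28 differences were positive and again no gene passed, where 10.0% of all genes did. The count was 3 without R172K 3 and 1 without R172K 2 or R140Q 2, and the median was 0.466 without R172K 2. Every R172K array lay above every control array for Mybl1, Tyms and Aurkb, against 7.47% of all genes, a count near that share and no result about the set.

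Set against each other, R172K and R140Q hearts differed in 1 of the 45 genes, Ccnd2, which was lower in R172K hearts, where 1.48% of all genes passed in either direction. A single call is near that share and is no result about the set. The median difference was -0.076, and 16 of 45 differences were positive. Leaving out single arrays moved that median to -0.013 (R140Q 2), -0.045 (R140Q 3), -0.140 (R140Q 4), 0.083 (R172K 1) and 0.125 (R172K 2), so its sign rests on single arrays. The count was 1 without R172K 3 and 0 without any 1 of the R140Q arrays, the control arrays, R172K 1 or R172K 2. Without R172K 4 the median was -0.334 with 1 positive difference, and 4 genes were lower in R172K hearts, namely Ccnd1, Ccnd2, Mcm2 and Mcm5, where again 1.48% of all genes passed. That array was picked out by its high values in these genes, so lower R172K values without it follow in part from the selection. The 3 comparisons share arrays, so they are not independent of each other.

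**Figure D3:**
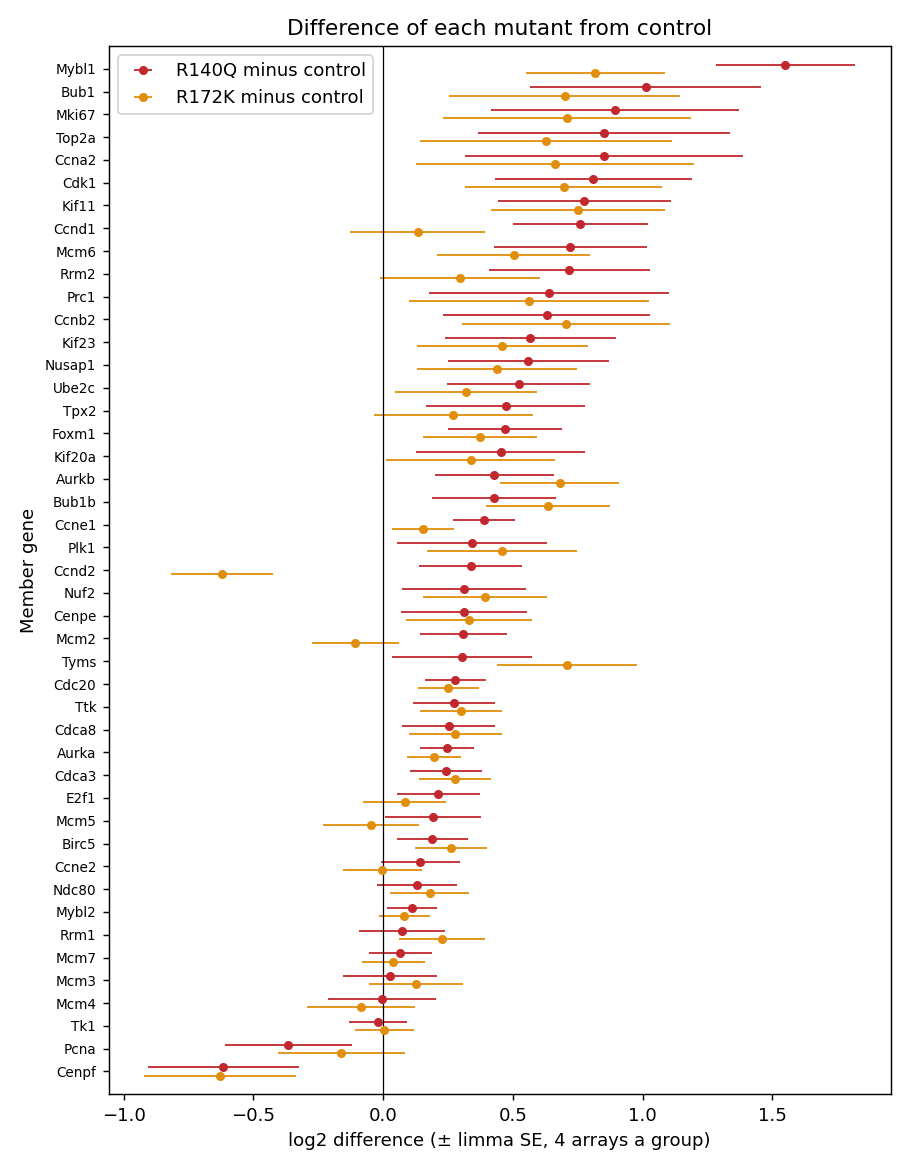
Log2 difference of R140Q hearts (red) and R172K hearts (orange) from control hearts for each of the 45 genes, with bars of 1 limma standard error and 4 arrays in each group. Mybl1 has the largest R140Q difference at 1.55, Ccnd2 points in opposite directions at 0.34 and -0.62, and Cenpf lies lowest for both mutants at -0.62 and -0.63.

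Among the transcription factors, Mybl1 (A-Myb, best known from germ cells of the testis) had the largest R140Q difference of the set. Its log2 intensity was 7.30, 6.27, 7.44 and 7.35 in R140Q hearts, 6.12, 6.23, 5.97 and 7.11 in R172K hearts, and 5.53, 5.51, 5.72 and 5.40 in control hearts. All mutant arrays lay above all control arrays, and R140Q 2 lay well under the other R140Q arrays. The R140Q difference was 1.55 ± 0.27 (SE, limma adjusted p = 0.0147), or 2.93-fold. Adjusted p was 0.0501 without R140Q 1, 0.0562 without R140Q 3 and 0.055 without control 1, with differences of 1.48, 1.43 and 1.55. The R172K difference was 0.82 ± 0.27 and did not pass (limma adjusted p = 0.0632), and it was 0.57 without R172K 4. The R172K minus R140Q difference of -0.73 ± 0.27 did not pass either (adjusted p = 0.189).

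Its relative Mybl2, the MuvB partner, differed little outside 1 array. Mybl2 averaged 6.62 ± 0.07 in R140Q, 6.59 ± 0.21 in R172K and 6.51 ± 0.10 in control hearts (SD, n = 4 each), and R172K 4 read 6.91 where the other R172K arrays read 6.46 to 6.52. E2f1, the activator of replication genes, read 6.29, 6.60, 6.31 and 6.36 in R140Q, 6.11, 6.04, 6.02 and 6.87 in R172K, and 6.25, 6.19, 6.19 and 6.07 in control hearts. Every R140Q array was above every control array for E2f1, by a difference of 0.21 ± 0.16 that did not pass (adjusted p = 0.565). Foxm1, the late factor of mitotic genes, read 6.19, 6.32, 6.34 and 5.61 in R140Q, 5.76, 5.70, 5.88 and 6.73 in R172K, and 5.90, 5.66, 5.56 and 5.45 in control hearts. Its low R140Q array, number 4, and its high R172K array, also number 4, are those that stood out over the whole set.

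The D-type cyclins, which link growth signals to the first kinases of the cycle, had different values in the mutants. Ccnd1 read 9.89, 9.96, 10.26 and 9.77 in R140Q, 8.97, 8.80, 9.38 and 10.22 in R172K, and 9.14, 8.83, 9.25 and 9.62 in control hearts. The R140Q arrays lay above all control arrays, by 0.76 ± 0.26 (limma adjusted p = 0.149). In the fit without R172K 4 that difference passed (0.76 ± 0.17, adjusted p = 0.0284). Ccnd1 in R172K hearts differed from control by 0.13 ± 0.26, and by -0.16 without R172K 4. Against R140Q hearts the R172K difference of Ccnd1 was -0.63 ± 0.26 and did not pass (adjusted p = 0.251), and the groups overlapped. Without R172K 4 that difference was -0.92 ± 0.18 (adjusted p = 0.0368).

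Ccnd2 read 10.46, 10.51, 10.57 and 10.92 in R140Q, 9.23, 9.28, 10.29 and 9.84 in R172K, and 10.24, 10.27, 10.44 and 10.18 in control hearts. Every R172K array lay below every R140Q array, as for 4.64% of all genes, and among the 45 this was so for Ccnd2 alone. R172K 1 and 2 were the lowest of the 12 arrays, and R172K 3 lay within the control range. Ccnd2 fell in R172K against R140Q hearts by 0.96 on the log2 scale (SE 0.20, limma adjusted p = 0.0435). That call held without R172K 3 (adjusted p = 0.00144) and without R172K 4 (0.0416), and was lost without any 1 of the other 10 arrays, with adjusted p between 0.0596 and 0.14. Against control the R172K difference was -0.62 ± 0.20 (adjusted p = 0.0574), passing without R172K 3 (-0.83, adjusted p = 0.00238). The R140Q difference from control was 0.34 ± 0.20 (adjusted p = 0.434).

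Ccne1, an E-type cyclin of the entry into DNA synthesis, read 6.49, 6.60, 6.69 and 6.47 in R140Q, 6.31, 6.02, 6.30 and 6.68 in R172K, and 6.20, 6.15, 6.03 and 6.31 in control hearts. The R140Q arrays again lay above all control arrays, by 0.39 ± 0.12 (adjusted p = 0.108; 0.0284 in the fit without R172K 4). Its relative Ccne2 averaged 5.91 ± 0.06 in R140Q, 5.76 ± 0.35 in R172K and 5.77 ± 0.23 in control hearts, and neither mutant passed against control.

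The cyclins of DNA synthesis and mitosis, Ccna2 and Ccnb2, and their kinase Cdk1 had the widest spread over arrays of the cyclin group. Ccna2 read 6.68, 7.19, 7.15 and 6.01 in R140Q, 5.53, 5.42, 6.91 and 8.42 in R172K, and 6.31, 5.58, 5.80 and 5.95 in control hearts, a range of 3.00 that was the widest of the 45 genes. Groups overlapped for Ccna2, since R140Q 4 lay within the control range and R172K 1 and 2 lay under it. Cdk1 read 6.63, 7.18, 6.89 and 6.31 in R140Q, 5.99, 5.83, 6.76 and 7.98 in R172K, and 6.18, 5.82, 5.58 and 6.20 in control hearts. For Cdk1 all R140Q arrays exceeded all control arrays, by 0.81 ± 0.38 (adjusted p = 0.303). Ccnb2 differed from control by 0.63 ± 0.40 in R140Q and 0.71 ± 0.40 in R172K hearts, the second being 0.26 without R172K 4.

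**Figure D4:**
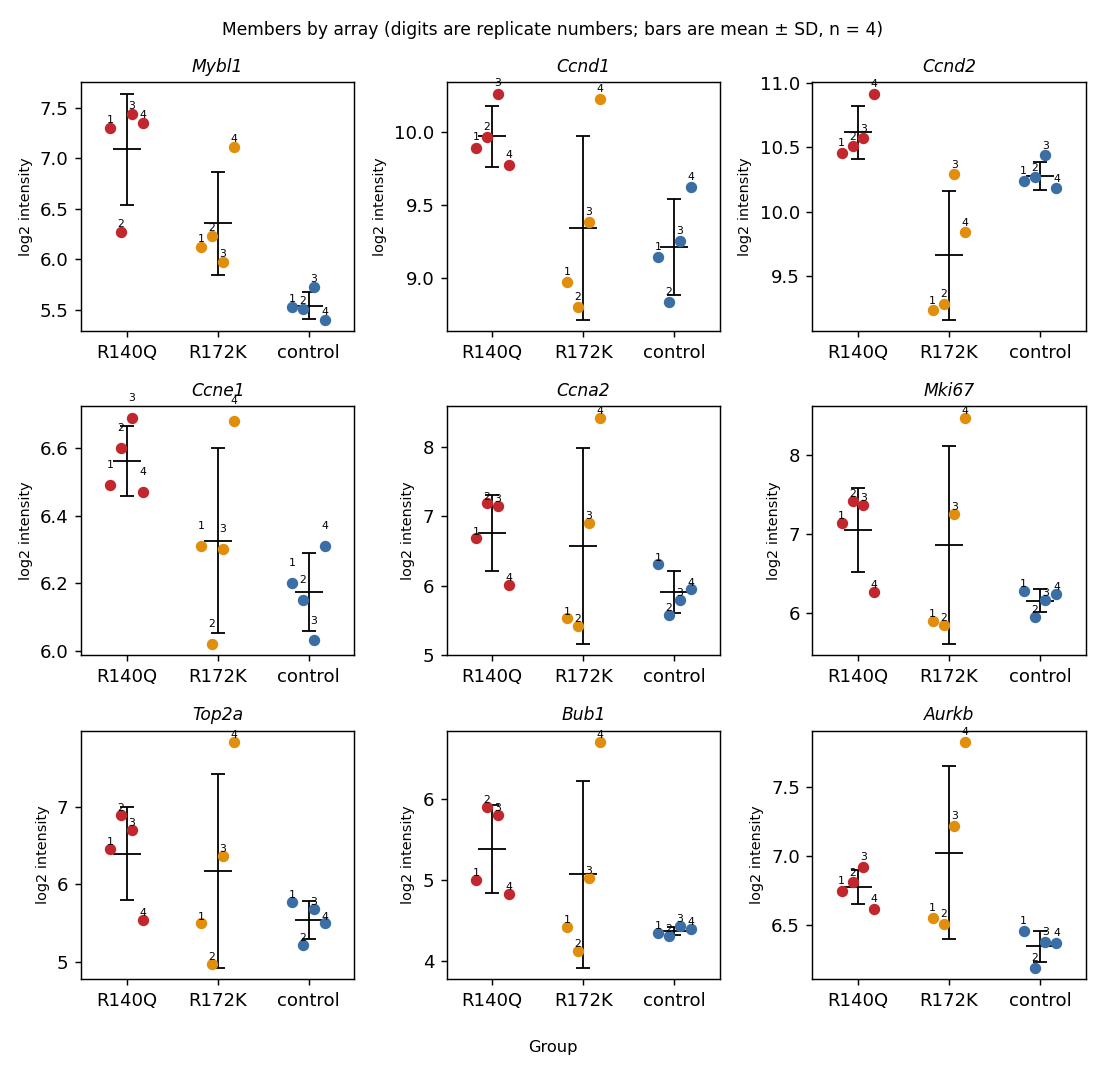
Log2 intensity of 9 genes of the set by group (R140Q, R172K, control), 1 point per array with its replicate number, and bars of the mean ± SD (n = 4). R172K 4 is the highest point of its group in all panels except Ccnd2, where R172K 3 is, and the 4 R140Q points lie above the 4 control points for Mybl1, Ccnd1, Ccnd2, Ccne1, Bub1 and Aurkb.

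Most replication genes had small differences in R140Q hearts, and Mcm6 had the largest. The Mcm2 to Mcm7 proteins form the ring helicase that opens DNA, and Pcna is the sliding clamp of the polymerases. Over these 7 genes the median R140Q difference was 0.067 and the median R172K difference -0.045 (-0.278 without R172K 4), and none passed against control. Mcm6 read 6.22, 6.46, 6.16 and 6.49 in R140Q, 5.97, 5.57, 5.70 and 7.22 in R172K, and 5.35, 5.31, 5.82 and 5.97 in control hearts. Its R140Q difference was 0.72 ± 0.30 (adjusted p = 0.228; 0.0233 in the fit without R172K 4). Mcm3, Mcm4, Mcm5 and Mcm7 had R140Q differences between -0.005 and 0.19, and Mcm2 one of 0.31 ± 0.17. Pcna, by its brighter probe set, had a negative one of -0.37 (limma adjusted p = 0.511).

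In R172K hearts the replication genes separated array 4 from the rest. Mcm2 read 7.19, 7.36, 6.86 and 7.25 in R140Q, 6.47, 6.53, 6.63 and 7.35 in R172K, and 6.96, 6.84, 6.82 and 6.79 in control hearts. R172K 1, 2 and 3 lay under all control arrays for Mcm2, and R172K 4 above them. Mcm4 showed the same order, with 6.33, 6.49, 6.65 and 7.53 in R172K hearts, against 6.91, 6.71, 7.04 and 6.68 in control hearts. With all arrays, R172K minus R140Q was -0.416 ± 0.168 for Mcm2 (limma adjusted p = 0.236) and -0.237 ± 0.185 for Mcm5 (adjusted p = 0.596). Neither passed, and the groups overlapped for both genes. Without R172K 4, Mcm2 and Mcm5 were lower in R172K than in R140Q hearts, by -0.62 ± 0.10 (adjusted p = 0.0218) and -0.47 ± 0.10 (adjusted p = 0.0416). Against control without that array, Mcm2 differed by -0.31, Mcm4 by -0.35, Mcm5 by -0.28 and Pcna by -0.46, with adjusted p between 0.0597 and 0.0996.

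Pcna, Tk1 and Top2a have a further probe set with their symbol. Which set of Pcna and of Tk1 reads the gene and not a near-identical copy could not be settled from the tables used, so the values of both genes are uncertain. The brighter Pcna set read 9.69, 9.80, 9.17 and 9.76 in R140Q, 9.41, 9.51, 9.59 and 10.72 in R172K, and 10.15, 10.05, 9.76 and 9.93 in control hearts. The other Pcna set gave an R140Q difference of -0.12, against -0.37 by the brighter one. For Tk1, a kinase that salvages thymidine, the sets gave -0.02 and 0.31. The other Top2a set averaged 3.36 ± 0.11 in R140Q, 3.44 ± 0.08 in R172K and 3.37 ± 0.22 in control hearts, near the bottom of the scale in every group.

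Among the 4 nucleotide genes, Rrm2, the regulated subunit of ribonucleotide reductase, had the largest R140Q difference and Tyms the largest R172K difference. Rrm2 read 6.51, 7.03, 6.66 and 6.99 in R140Q, 5.93, 5.59, 6.49 and 7.49 in R172K, and 6.02, 5.92, 6.25 and 6.13 in control hearts. Each R140Q array was above each control array, with a difference of 0.72 ± 0.31 (adjusted p = 0.257; 0.0385 in the fit without R172K 4). Its partner Rrm1 differed by 0.07 ± 0.17 in R140Q and 0.23 ± 0.17 in R172K hearts (0.02 without R172K 4). Tyms, which makes thymidylate, read 6.59, 6.84, 6.46 and 8.01 in R172K hearts, against 6.25, 6.41, 6.22 and 6.19 in control hearts. All R172K arrays exceeded all control arrays for Tyms, by 0.71 ± 0.27 (limma adjusted p = 0.106), and by 0.36 ± 0.14 without R172K 4 (adjusted p = 0.125).

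The 8 mitotic kinases and checkpoint genes all had positive differences in both mutants, with medians of 0.308 in R140Q and 0.379 in R172K hearts, and none passed. The R172K median was 0.152 without R172K 4. Bub1, a kinase of the spindle checkpoint, read 5.00, 5.90, 5.80 and 4.83 in R140Q, 4.42, 4.12, 5.03 and 6.71 in R172K, and 4.34, 4.31, 4.43 and 4.39 in control hearts. The control arrays spanned little, all R140Q arrays lay above them, and the R172K arrays lay under, within and above their range. Its R140Q difference was 1.01 ± 0.45, or 2.02-fold (adjusted p = 0.267), and it was 1.01 ± 0.24 in the fit without R172K 4 (adjusted p = 0.0353). Bub1b, its checkpoint relative, differed by 0.43 ± 0.24 in R140Q and 0.64 ± 0.24 in R172K hearts (0.33 without R172K 4). Aurkb, the kinase of the chromosomal passenger complex, read 6.75, 6.81, 6.92 and 6.62 in R140Q, 6.55, 6.51, 7.22 and 7.83 in R172K, and 6.46, 6.19, 6.38 and 6.37 in control hearts. All 8 mutant arrays lay above all control arrays for Aurkb, with differences of 0.43 ± 0.23 in R140Q (adjusted p = 0.381) and 0.68 ± 0.23 in R172K hearts (adjusted p = 0.0709). Without R172K 4 the R172K difference of Aurkb was 0.41 (adjusted p = 0.108).

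The other genes of this role had smaller differences. Plk1, which acts throughout mitosis, differed from control by 0.34 ± 0.29 in R140Q and 0.46 ± 0.29 in R172K hearts, the second being 0.10 without R172K 4. Aurka, the centrosome kinase, differed by 0.25 ± 0.10 and 0.20 ± 0.10, and Ttk, which starts the checkpoint, by 0.27 ± 0.16 and 0.30 ± 0.16, R140Q first in each pair. Without R172K 4 the R172K differences of Aurka and Ttk were 0.11 and 0.15. Birc5 and Cdca8, partners of Aurkb in its complex, had R140Q differences of 0.19 ± 0.14 and 0.25 ± 0.18. For Cdca8, R172K 4 read 5.82 and the other R172K arrays 4.95 to 5.04.

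A kinetochore gene, Cenpf, had the lowest difference of the set in both mutants. Ndc80 and Nuf2, which bind microtubules as parts of 1 complex, and the motor Cenpe had R140Q differences of 0.13, 0.31 and 0.31. Cenpf, a large kinetochore protein, read 5.84, 6.65, 6.21 and 5.73 in R140Q, 5.60, 5.65, 6.58 and 6.55 in R172K, and 6.95, 6.60, 7.22 and 6.11 in control hearts. Its differences were -0.62 ± 0.29 in R140Q (adjusted p = 0.308) and -0.63 ± 0.29 in R172K hearts (adjusted p = 0.193), neither passing, and the groups overlapped. R172K 4 was not the highest array for Cenpf.

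The 6 genes of the spindle and of cytokinesis had positive differences in both mutants, with medians of 0.564 in R140Q and 0.449 in R172K hearts. Without R172K 4 the R172K median was 0.045 and 4 of the 6 differences were positive. For 5 of them, Kif11, Kif20a, Kif23, Prc1 and Nusap1, all R140Q arrays lay above all control arrays. Kif11, the motor that pushes spindle poles apart, read 6.06, 6.72, 6.81 and 5.79 in R140Q, 5.91, 5.50, 6.52 and 7.34 in R172K, and 5.69, 5.42, 5.76 and 5.40 in control hearts. Prc1, which bundles microtubules between the parting chromosomes, read 5.22, 6.16, 6.01 and 5.12 in R140Q, 4.78, 4.49, 5.74 and 7.19 in R172K, and 4.98, 4.86, 5.00 and 5.12 in control hearts. Prc1 differed by 0.64 ± 0.46 in R140Q and 0.56 ± 0.46 in R172K hearts, and by 0.02 in R172K hearts without array 4. Kif20a and Kif23, motors of cytokinesis, and Nusap1, a microtubule binder, had R140Q differences of 0.45 ± 0.33, 0.57 ± 0.33 and 0.56 ± 0.31, and Tpx2, the activator of Aurka, one of 0.47 ± 0.31.

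Partners of the ubiquitin ligases active in mitosis were also measured. Ube2c, a ubiquitin carrier of the ligase that ends mitosis, read 6.66, 7.04, 7.04 and 6.89 in R140Q, 6.32, 6.10, 6.63 and 7.78 in R172K, and 6.50, 6.48, 6.22 and 6.35 in control hearts. Its R140Q difference was 0.52 ± 0.27 (adjusted p = 0.368; 0.0313 in the fit without R172K 4), and R172K 1, 2 and 3 lay within, under and above the control range. Cdc20, an activator of that ligase, differed by 0.28 ± 0.12 in R140Q and 0.25 ± 0.12 in R172K hearts, and Cdca3, which triggers entry into mitosis, by 0.24 ± 0.14 and 0.28 ± 0.14. The R172K difference of Cdca3 was 0.14 without R172K 4.

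Mki67 and Top2a, markers of dividing cells that coat or untangle chromosomes, followed the pattern of the arrays given above. Mki67 read 7.14, 7.42, 7.37 and 6.26 in R140Q, 5.89, 5.84, 7.25 and 8.47 in R172K, and 6.28, 5.94, 6.16 and 6.24 in control hearts. Top2a read 6.46, 6.89, 6.70 and 5.55 in R140Q, 5.50, 4.98, 6.37 and 7.83 in R172K, and 5.78, 5.22, 5.68 and 5.50 in control hearts. For both genes R140Q 4 lay within the control range and R172K 1 and 2 within or under it. The R140Q differences were 0.89 ± 0.48 for Mki67 (adjusted p = 0.381) and 0.85 ± 0.49 for Top2a (adjusted p = 0.417). In R172K hearts they were 0.71 ± 0.48 and 0.63 ± 0.49, and 0.17 and 0.08 without array 4.

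Other genes of the pathway, 183 measured, were counted by the same test. Against control, 2 rose and 2 fell in R140Q hearts, 12 rose and 11 fell in R172K hearts, and between R172K and R140Q hearts 1 was higher and 2 were lower in R172K. The totals of 4, 23 and 3 of 183 are near the shares of all genes that passed, 2.2%, 13.0% and 1.48%, and are no result about these genes. Without R172K 4 these totals of 4, 23 and 3 were 19, 20 and 4, where 4.93%, 10.0% and 1.48% of all genes passed. The total of 19 in R140Q hearts is above that share. The total of 4 was also 1 without R140Q 1, R140Q 3 or control 1, 2 without R140Q 4 or control 2, and 9 without R172K 3. That of 23 was 12 without control 1, 13 without control 2 and 35 without R172K 3. That of 3 was 8 without R172K 3, 0 without R140Q 1, R140Q 4, R172K 1 or R172K 2, and 1 without R140Q 2, R140Q 3 or any control array.

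Among regulators, E2f3, an activating E2f factor, rose in both mutants. E2f3 read 7.61, 7.54, 7.56 and 7.64 in R140Q, 7.84, 7.73, 7.42 and 7.78 in R172K, and 6.77, 6.79, 7.03 and 7.01 in control hearts. Neither mutant overlapped control, while the R140Q and R172K arrays overlapped each other, with differences of 0.69 ± 0.10 (limma adjusted p = 0.00473) and 0.79 ± 0.10 (adjusted p = 0.00107) from control, and R172K 4 was not the highest array. Ccnh, a subunit of the kinase that activates cyclin-dependent kinases, fell in both, by 0.36 in R140Q (adjusted p = 0.0258) and 0.54 in R172K hearts (adjusted p = 0.00148). The R140Q call of Ccnh was lost without any 1 of R140Q 1, 3 and 4 and control 1 and 2, with adjusted p up to 0.089. Cdkn1c (p57), an inhibitor of these kinases, fell in R172K hearts by 0.47 against control (adjusted p = 0.00565) and by 0.44 against R140Q hearts (adjusted p = 0.04). The second call held without R172K 3 or R172K 4 and was lost without any 1 of the other 10 arrays, with adjusted p up to 0.108. The inhibitor Cdkn1b (p27) differed by -0.32 ± 0.08 in R140Q hearts and did not pass (adjusted p = 0.0675), but passed without R172K 4 (adjusted p = 0.0293) or control 4 (0.0443). Rbbp4, a histone binder found in MuvB, was higher in R172K hearts by 0.39 against control (adjusted p = 0.00814) and 0.35 against R140Q hearts (adjusted p = 0.0495). The second call was lost without any 1 array other than R172K 3, with adjusted p from 0.0606 to 0.16 (0.072 without R172K 4). Rb1, Rbl1, Rbl2 and the MuvB subunit Lin54 passed in no comparison, though Lin54 passed in R172K against control without R172K 3 (0.29, adjusted p = 0.0147). Cdkn1a and Trp53 were not analysed here.

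Of 54 other replication genes, 1 rose and 1 fell in R140Q, and 2 rose and 5 fell in R172K hearts, shares near those of all genes (2.2% and 13.0%). Pola2, a primase partner, rose in both mutants, by 0.35 (adjusted p = 0.0161) and 0.23 (adjusted p = 0.0294), R140Q first. Its R140Q call was lost without R140Q 1, R140Q 3 or control 1 (adjusted p up to 0.0615), and its R172K call without R172K 4 (0.0701), R172K 2, control 1, control 2 or control 4 (up to 0.0796). Rpa1, which coats single-stranded DNA, fell in both, by 0.43 (adjusted p = 0.0229) and 0.46 (adjusted p = 0.00515). The R140Q call of Rpa1 was lost without R140Q 1, 3 or 4 or control 1, 2 or 3, with adjusted p up to 0.0797. In R172K hearts Rrm2b, a ribonucleotide reductase subunit induced by p53, fell by 0.61 (adjusted p = 0.0142) and the polymerase subunit Pold2 by 0.34 (adjusted p = 0.0225). Pold2 lost that call without R172K 1 or control 1, 2 or 3 (adjusted p up to 0.0747), and in R140Q hearts passed without R172K 3 (0.0321) or R172K 4 (0.0365).

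Of 72 other mitotic genes none passed in R140Q hearts, where 8 had an unadjusted p under 0.05 by limma (17.0% of all genes had one), and 6 rose and 1 fell in R172K hearts, where 13.0% of all genes passed. In the fit of all arrays these shares do not exceed those of all genes. With R140Q and control arrays alone, 13 rose and 1 fell in R140Q hearts, where 6.73% of all genes passed. In the fit without R172K 4, 6 rose in R140Q hearts, where 4.93% passed, and 4 rose and 1 fell in R172K hearts (10.0%). Every R140Q array lay above every control array for 22 of 72 (below for 1), against 7.79% of all genes. The R140Q counts lie above those shares, though fits without R172K 4 are not like for like. Differences were positive for 65 of 72 in R140Q and 66 of 72 in R172K hearts, with medians of 0.212 and 0.267. Without R172K 4 the R172K figures were 52 of 72 and 0.090. Cenpa, the centromere's histone, read 8.72, 8.97, 9.61 and 9.01 in R140Q, 10.02, 9.96, 8.86 and 9.92 in R172K, and 7.91, 8.25, 8.18 and 8.27 in control hearts. It rose in R172K hearts by 1.54 ± 0.24 (adjusted p = 0.00315), with R172K 3 as the low array and R172K 1 and 2 high, which is not the order of the 45 genes. Without R172K 3 Cenpa and Zwint also passed in R140Q against control (adjusted p = 0.0089 and 0.04) and in R172K against R140Q (0.00928 and 0.000283). Zwint, a kinetochore protein, rose by 0.85 ± 0.15 (adjusted p = 0.00519) with 10.57, 10.59, 9.75 and 10.48 in the R172K arrays. Bub3 of the checkpoint rose by 0.36 (adjusted p = 0.0165), and Sgo2a, which protects the cohesion of centromeres, fell by 1.07 on the log2 scale (adjusted p = 0.0199). Bub3 lost its call without control 1 (adjusted p = 0.053), and Sgo2a without R172K 1, R172K 2, control 1 or control 2 (up to 0.0671). Without R172K 3 Sgo2a passed in R140Q against control too (adjusted p = 0.0213) and in R172K against R140Q (0.0154).

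Of 13 genes of growth arrest and p53 targets, none passed in R140Q hearts, where 5 had an unadjusted p under 0.05 by limma (17.0% of all genes had one), and 2 rose and 3 fell in R172K hearts, where 13.0% of all genes passed. Mdm2, the ubiquitin ligase of p53, read 9.35, 9.13, 9.10 and 9.33 in R140Q, 8.81, 8.76, 8.76 and 8.78 in R172K, and 9.19, 9.21, 9.19 and 9.21 in control hearts. It fell in R172K hearts by 0.42 against control (adjusted p = 0.00294) and by 0.45 against R140Q hearts (adjusted p = 0.0207). The second call was lost without R140Q 1, R140Q 4, R172K 1 or R172K 2, with adjusted p up to 0.0741. Ccng1 and Gadd45a, both induced by p53, fell by 0.41 (adjusted p = 0.00365) and 0.65 (adjusted p = 0.00649). Ccng1 was also lower in R172K than in R140Q hearts without R172K 3 (adjusted p = 0.00503). Phlda3, a p53 target that restrains Akt, rose by 1.46 ± 0.27 in R172K hearts (adjusted p = 0.00638), and passed in R140Q hearts without R172K 3 (1.00, adjusted p = 0.0241) or R172K 4 (0.0385).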

How the data were processed

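The authors deposited 1 intensity per probe set and array, made with RMA (background correction, normalization between arrays, summary of probes), per the submitters' processing notes. Values were linear as judged from their range (array medians 74.8 to 78.0), so their log2 was used, without a pseudocount since all values were positive. RMA gives all arrays a like distribution, which hides any shift common to most genes. Depth does not apply to arrays.

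Of 34760 probe sets, 21640 had 1 gene symbol in the platform annotation, 1321 several and 11799 were not listed there. Gene IDs of 21553 matched the RefSeq gene table of GRCm38.p6. Dim genes stayed in.

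Means of 3 groups were fitted on 12 arrays with limma 3.58.1 in R 4.3.3 (lmFit, eBayes, two-sided), with Benjamini-Hochberg adjustment over 19937 genes. The script was tested on simulated data. Every member could be named, besides up to 4 changed genes of smallest p per pathway list and comparison and the fixed regulators given. The members and lists were chosen with earlier results of these data known. Alternatives covered the arrays, replicate block, probe sets, dim genes, normalization, variance model, weights, a Myl7 covariate and thresholds.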

Additional observations from a re-analysis of the deposited data

Results flagged for a closer look

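Among 198 groups of 4 arrays tested over 66 genes, 11 held an array that stood apart by Dixon's ratio, the gap to the nearest array divided by the group's range, above the 95% critical value for 4 arrays. Chance flags about 1 in 20 groups. R172K 4 was the high array for E2f1 (ratio 0.897), Mybl2 (0.865), Pcna (0.864) and Cdca8 (0.892). Within R140Q hearts, array 2 was low for Mybl1 (0.878) and Phlda3 (0.838), and array 3 was low for Pcna (0.837). R172K 3 was the low array for Cenpa (0.912) and Zwint (0.868), genes whose other R172K arrays lay close together. Of the control arrays, number 4 was low for Cdkn1b (0.874) and number 3 was high for Rbl2 (0.945).

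Among the same 66 genes, the R172K and R140Q effects differed by limma's test of the difference for 4 genes. Of all genes, 1.48% passed that test. Some of the 66 were named because they had passed a test, so the count cannot be set against that share. R172K minus R140Q was -0.958 for Ccnd2, -0.436 for Cdkn1c, 0.345 for Rbbp4 and -0.452 for Mdm2, with adjusted p of 0.0435, 0.04, 0.0495 and 0.0207. Each of the 4 calls was lost with some single array left out, that of Rbbp4 without R172K 4 too (adjusted p = 0.072).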

How the results depend on the processing

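No gene of the set that passed changed its direction under the alternatives run, while the median of R172K against R140Q, a value with no test, changed sign. The number of them that passed in R140Q against control, 1, was 15 with only the arrays of the compared groups, 4 with array weights and 0 in each of 4 settings, namely without the dimmer genes (which leaves out Mybl1), without control 3, R172K 3 and R140Q 4 together, with Myl7 as a covariate and at an adjusted p under 0.01. Leaving out 1 array at a time gave 0 to 8. In R172K against control the count of 0 was 1 with only the compared arrays, with each array centred, without the 3 arrays named and with Myl7, 2 without the dimmer genes, 3 with array weights and 3 at an adjusted p under 0.10, and 0 to 3 with 1 array left out. In R172K against R140Q the count of 1 was 4 with array weights and 0 with only the compared arrays, with Myl7 and at 0.01, and 0 to 4 with 1 array left out. Medians of the differences ran, with 1 array left out, from 0.298 to 0.401, from 0.045 to 0.466 and from -0.334 to 0.125 in these 3 comparisons, and they were 0.192, 0.005 and -0.027 without the dimmer genes. With array weights the R172K medians were 0.074 against control and -0.293 against R140Q, and the second was -0.241 with Myl7. For the other pathway genes the R140Q count of 4 was 27 with only the compared arrays, where 6.73% of all genes passed. That count was 7 without the dimmer genes, 16 with weights, 0 with Myl7, 1 at 0.01 and 9 at 0.10. The R172K count of 23 was 15 with only the compared arrays, 40 with weights and 11 at 0.01. The R172K against R140Q count of 3 was 10 with weights, 6 without the 3 arrays and at 0.10, and 0 with only the compared arrays, with Myl7 and at 0.01. With 1 array left out these counts ran from 1 to 19, 12 to 35 and 0 to 8. Fewer arrays or genes change the tests by construction, and otherwise the cause was not tested. With the replicate number as a replicate block the 45 genes gave 1, 1 (Ccnd2, lower in R172K) and 0 calls, and the other pathway genes 2 and 0 where 4 and 3 had passed. Deviations of same-numbered arrays had correlations from -0.336 to 0.152 over 12 pairs, with 2 above 0.1. These gave no sign of a pairing by number, but cannot exclude one. Dim signal limits most of the 45 genes. Results with the other probe set of Pcna, Tk1 and Top2a were added after seeing the data.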
